A study of Homo sapiens with 6 samples.

Results

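The enzymes that make long-chain fatty acids from acetyl units and add double bonds to them were followed at the transcript level in T98G, a human glioblastoma cell line. They are the 10 genes ACLY, ACSS2, ACACA, FASN, ELOVL5, ELOVL6, SCD, FADS1, FADS2 and ACSL3, taken by gene name from the 35750 genes listed in the table. All 10 had a row and all 10 were among the 11841 genes whose mean reached 1 FPKM, the number of fragments scaled to the length of the gene and the size of the library, and which were tested. The libraries fall into 2 groups of 3. The libraries labelled shSLC1A5 carry a short hairpin RNA against SLC1A5, a transporter of glutamine and other neutral amino acids, and those labelled shControl are their controls. Both groups were grown in DMEM with 10% fetal bovine serum and antibiotics, and the series asks what depletion of SLC1A5 does to gene expression. The sequence of the hairpins and the time after their delivery were not given in the sources used here. Nothing in the labels tells whether the replicates were grown apart, and a p-value then covers only the spread among these libraries, which may be technical.

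Fatty acid synthesis starts in the cytosol, where acetyl-CoA made from citrate or acetate is carboxylated to malonyl-CoA and built into palmitate. Elongases lengthen the chain in the endoplasmic reticulum, desaturases insert double bonds, and acyl-CoA synthetases activate the free acids for use in lipids. Genes of this pathway, like those of cholesterol synthesis, are known targets of the sterol regulatory element-binding proteins (SREBPs), and dividing glioma cells use the products for membranes.

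Poly(A) RNA was sequenced from both ends, and total counts ran from 66998312 to 70802167 in the shSLC1A5 libraries and from 59327548 to 63420773 in the shControl libraries. SLC1A5 itself, the targeted gene, had 87.5, 88.0 and 88.3 FPKM in the libraries labelled shSLC1A5, against 95.01, 95.3 and 97.1 FPKM in the shControl libraries. The groups did not overlap, and its log2 fold change was -0.14 ± 0.0183 (SE; adjusted p = 0.00019, edgeR quasi-likelihood test with Benjamini-Hochberg adjustment), a level 9.02% lower. By log2 fold change SLC1A5 was number 1714 of the 2245 genes called lower, which were 19.0% of all tested genes. Whether the hairpin caused this small difference was not tested. Every direction given here is that of the libraries labelled shSLC1A5. Of the 10 markers used to check the line 5 were tested, of which 2 were called lower (VIM and CD44) and 3 higher (FN1, TIMP1 and LGALS1, at 0.31, 0.23 and 0.16 on the log2 scale). With a correction for GC content and length, given below, 2 were called lower and 1 higher. There TIMP1 and LGALS1 did not pass, at 0.11 and -0.05 (edgeR adjusted p = 0.082 and 0.22). VIM and CD44 had means of 338.7 and 194 FPKM in shSLC1A5 and 391 and 209.6 FPKM in shControl, while the glial gene GFAP stayed at or under 0.0247 FPKM in shSLC1A5 and 0.0327 FPKM in shControl. SOX2 was listed at 0 in all 3 shSLC1A5 libraries and at or under 0.0580 FPKM in the shControl libraries. The line markers NES, CHI3L1 and OLIG2 were also too low to be tested. Their means were 0.185, 0.597 and 0.729 FPKM in shSLC1A5 and 0.0959, 0.168 and 0.741 FPKM in shControl. Transcripts of other cell types were also present, those of neutrophils and red cells mainly in shSLC1A5 replicate 1 and those of B cells in all 3 shSLC1A5 libraries. The 8 neutrophil markers summed to 57.2, 0.427 and 0.649 FPKM in shSLC1A5 replicates 1, 2 and 3, against 0.395 to 0.431 FPKM in shControl, with the granule gene MPO at 0 in all 6 libraries. The 8 B cell markers summed to 9.97 to 14.8 FPKM in shSLC1A5 and 5.64 to 6.41 FPKM in shControl, and IGHM, the heavy chain of IgM, was at 2.66 to 4.89 FPKM in shSLC1A5 and 0 in shControl. CD74, which is also expressed outside B cells and makes up most of the shControl sum, went the other way, at 3.79 to 4.16 FPKM in shSLC1A5 and 5.35 to 5.86 FPKM in shControl (edgeR adjusted p = 8.1e-05). Of 8 red cell markers, the 6 in the table summed to 4.77, 0.297 and 0.0783 FPKM in shSLC1A5 and to 0 to 0.0667 FPKM in shControl. The part of these transcripts in the results was not tested. Without shSLC1A5 replicate 1, 9 enzymes were called lower, with ACSS2 in and ELOVL6 out, and the median log2 fold change of the 10 was -0.36.

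The transcripts of the fatty acid enzymes were lower in the shSLC1A5 libraries, by amounts that differed widely between the steps. SCD, the desaturase that makes oleate, fell by 61.0%, FADS2 and FADS1, which desaturate polyunsaturated fatty acids, by 45.3% and 36.6%, and FASN, ACACA and ACSL3 by 22.3% to 24.0%. ELOVL5 fell by 19.2%, ACLY by 17.1% and ELOVL6 by 7.40%, and ACSS2 did not pass the test. In all, 9 of the 10 were called lower (edgeR, adjusted p under 0.05) and 0 higher, where 19.0% of all tested genes were called lower and 20.2% higher. The median log2 fold change of the 10 was -0.37, against -0.01 over all tested genes. For all 10, every shSLC1A5 library lay below every shControl library, which held for 22.3% of tested genes. For single genes, an exact permutation test on FPKM (two-sided) gave p = 0.1 for each of the 10, the smallest that 3 against 3 libraries allow. In bulk RNA, fewer cells that express a gene and less of its RNA per cell cannot be told apart.

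**Figure D1:**
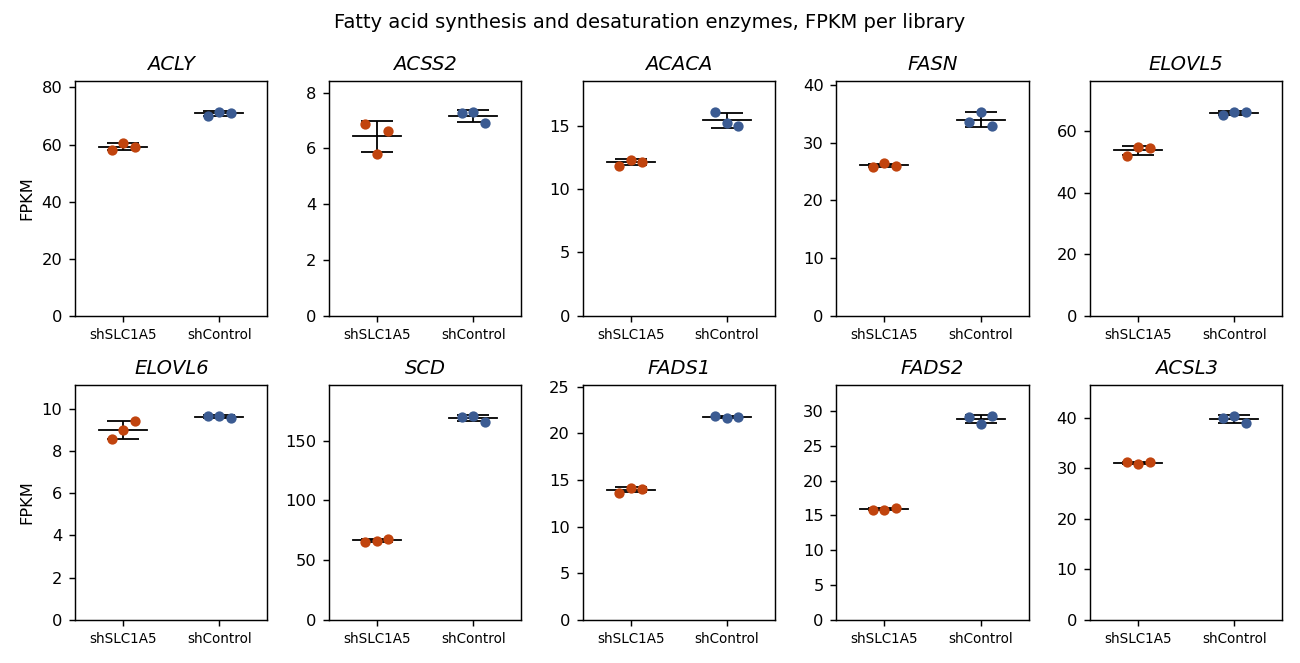
FPKM of the 10 enzymes in each library (points), with the mean and SD of each group of 3 (lines), shSLC1A5 left of shControl; each panel starts at 0 and has its own scale. The groups do not overlap in any panel, and the gap is narrowest for ACSS2, at 5.82 to 6.88 against 6.91 to 7.32 FPKM, and widest for SCD, at 65.2 to 67.7 against 166 to 171 FPKM.

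Over all tested genes, the log2 fold change tracked the GC content of the transcript (Spearman rho of 0.49 across genes, which are not independent replicates). The fit was therefore repeated with offsets for GC content and transcript length, called the corrected fit here. It also called 9 of the 10 enzymes lower, where 14.8% of tested genes were lower, but with ACSS2 in and ELOVL6 out. The corrected median of the 10 was -0.33, against -0.01 over all tested genes. SLC1A5 was at -0.35 in the corrected fit.

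**Figure D2:**
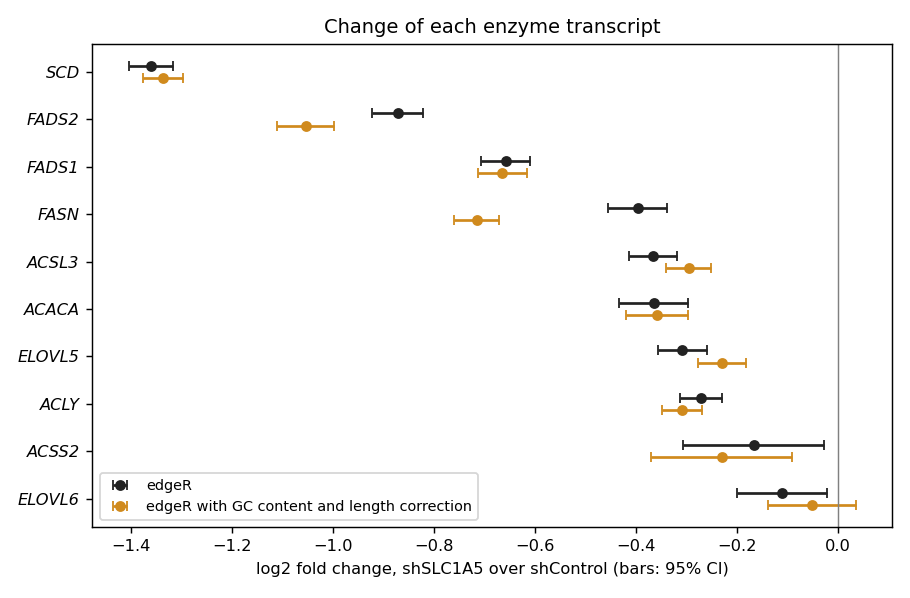
Log2 fold change, shSLC1A5 over shControl, of each enzyme in the plain edgeR fit (black) and in the corrected fit (orange), with 95% confidence intervals as bars; the grey line marks no change. SCD, FADS2 and FADS1 lie farthest to the left in the uncorrected fit at -1.36, -0.87 and -0.66, and FASN moves to -0.72 with the correction.

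Acetyl-CoA for the pathway comes from citrate through ACLY, ATP citrate lyase, and from acetate through ACSS2, a cytosolic and nuclear acetyl-CoA synthetase. ACLY (ENSG00000131473, GRCh38 chromosome 17, 41866917 to 41930542, minus strand) had 58.2, 60.4 and 59.3 FPKM in the shSLC1A5 libraries, against 69.9, 71.5 and 71.2 FPKM in the shControl libraries. The 3 shSLC1A5 values sat close together and all below the shControl values. The means were 59.3 ± 1.07 FPKM in shSLC1A5 and 70.9 ± 0.856 FPKM in shControl (SD, n = 3 each), a log2 fold change of -0.27 ± 0.0186 (SE; edgeR adjusted p = 1.6e-06) or a level lower by 17.1% (95% confidence interval 14.7% to 19.4%). ACSS2 (ENSG00000131069, chromosome 20, 34872146 to 34927962, plus strand) had 6.88, 5.82 and 6.62 FPKM in shSLC1A5, against 7.27, 7.32 and 6.91 FPKM in shControl. Its groups did not overlap, but the highest shSLC1A5 value, 6.88, almost touched the lowest shControl value, 6.91. The log2 fold change of ACSS2 was -0.17 ± 0.0631 (SE; edgeR adjusted p = 0.058), with a 95% interval of 1.86% to 19.1% lower, and it did not pass the test. With the GC and length correction ACSS2 passed at -0.23 (edgeR adjusted p = 0.022). It also passed without shSLC1A5 replicate 1, at -0.22 (edgeR adjusted p = 0.024), whereas without shSLC1A5 replicate 2 it was at -0.10 (edgeR adjusted p = 0.17). The other 4 fits that left out a library did not pass either (edgeR adjusted p = 0.054 to 0.14).

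Chain synthesis itself rests on ACACA and FASN. ACACA (ENSG00000278540, chromosome 17, 37084992 to 37406836, minus strand) encodes acetyl-CoA carboxylase alpha, which makes the malonyl-CoA that limits the rate of synthesis. It had 11.9, 12.3 and 12.2 FPKM in shSLC1A5, against 16.1, 15.3 and 15 FPKM in shControl. The spread within either group was small beside the gap between them, and the log2 fold change was -0.36 ± 0.0309 (SE; edgeR adjusted p = 7.2e-06). FASN (ENSG00000169710, chromosome 17, 82078338 to 82098294, minus strand), the multienzyme that assembles palmitate, had 25.8, 26.4 and 25.9 FPKM in shSLC1A5, against 33.6, 35.4 and 32.9 FPKM in shControl. Again no shSLC1A5 library reached the shControl range. FASN averaged 26.1 ± 0.304 FPKM in shSLC1A5 and 34.0 ± 1.29 FPKM in shControl (SD, n = 3 each), with a log2 fold change of -0.40 ± 0.0265 (SE; edgeR adjusted p = 1.4e-06). Its longest transcript is the richest in GC among the 10, at 65.3%, and the corrected fit gave -0.72 (edgeR adjusted p = 1.1e-09). The size of the FASN change therefore depends on the correction, and its direction does not. FASN relative to ACACA, as a ratio of FPKM, was 2.15 ± 0.0259 in shSLC1A5 and 2.20 ± 0.117 in shControl (SD, n = 3 each). The groups overlapped (exact two-sided permutation p = 0.6). This ratio uses FPKM without the correction. In the corrected fit ACACA was at -0.36 and FASN at -0.72, so FASN fell further there.

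The elongases differed from each other. ELOVL5 (ENSG00000012660, chromosome 6, 53267398 to 53349179, minus strand), which lengthens polyunsaturated acyl chains, had 52.1, 54.9 and 54.5 FPKM in shSLC1A5, against 65.25, 66.4 and 66.4 FPKM in shControl. All 3 shSLC1A5 libraries were lower, with a log2 fold change of -0.31 ± 0.0220 (SE; edgeR adjusted p = 2.0e-06) and -0.23 after correction. ELOVL6 (ENSG00000170522, chromosome 4, 110045846 to 110198653, minus strand), which turns palmitate into stearate, had 8.56, 8.98 and 9.41 FPKM in shSLC1A5, against 9.66, 9.66 and 9.53 FPKM in shControl. One shSLC1A5 library, replicate 3, came close to the shControl values, and the log2 fold change was -0.11 ± 0.0403 (SE; edgeR adjusted p = 0.049), with an interval of 1.52% to 12.9% lower. That call was lost in 13 of the 18 other settings run. These include the corrected fit, at -0.05 (edgeR adjusted p = 0.38), and each fit that left out a library other than shSLC1A5 replicate 3 (edgeR adjusted p = 0.082 to 0.13).

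The desaturases had the largest differences of the 10 in the uncorrected fit, whereas in the corrected fit FASN passed FADS1. SCD (ENSG00000099194, chromosome 10, 100347233 to 100364826, plus strand) encodes stearoyl-CoA desaturase, which converts saturated acyl-CoA to monounsaturated oleate and palmitoleate. It had 65.2, 66.3 and 67.7 FPKM in shSLC1A5, against 170, 171 and 166 FPKM in shControl. The 2 groups were far apart and each was tight. SCD averaged 66.4 ± 1.27 FPKM in shSLC1A5 and 169 ± 2.66 FPKM in shControl (SD, n = 3 each), a log2 fold change of -1.36 ± 0.0200 (SE; edgeR adjusted p = 1.1e-11) or 61.0% lower (95% interval 59.8% to 62.2%). By mean FPKM among the 11841 tested genes it ranked 465 in shSLC1A5 and 154 in shControl. Sorted by log2 fold change, SCD was number 11 of the 2245 genes called lower. The correction left it at -1.34.

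FADS2 and FADS1 act in turn on the route from linoleic acid to arachidonic acid, and their genes are neighbours on chromosome 11. FADS2 (ENSG00000134824, 61792980 to 61867354, plus strand) had 15.7, 15.8 and 16.1 FPKM in shSLC1A5, against 29.1, 28.1 and 29.3 FPKM in shControl. The shSLC1A5 libraries were tightly grouped and far below the shControl libraries, and the log2 fold change was -0.87 ± 0.0230 (SE; edgeR adjusted p = 1.1e-09), or -1.05 after correction. FADS1 (ENSG00000149485, 61799627 to 61829318, minus strand) had 13.6, 14.1 and 14.0 FPKM in shSLC1A5, against 21.9, 21.6 and 21.8 FPKM in shControl. Its groups did not overlap either, with a log2 fold change of -0.66 ± 0.0219 (SE; edgeR adjusted p = 7.6e-09), and also -0.66 after correction. FADS2 relative to FADS1 was 1.14 ± 0.0181 in shSLC1A5 and 1.32 ± 0.0225 in shControl (SD, n = 3 each), and the groups did not overlap. In the annotation, the whole span of FADS1, 29692 bases, lies within the listed span of FADS2 on the opposite strand, and the genes share 490 exonic bases, 4.79% of those of FADS1 and 4.44% of those of FADS2. Whether counting used strand was not given in the sources used here, so the split of reads between these genes is uncertain.

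Stretches from the 250 bases before annotated starts are shown for the 3 desaturases and, as the called enzyme with the smallest fold change, for ELOVL6. Those of SCD, FADS1 and ELOVL6 stop short of the start. Those of FADS1 and FADS2 lie within the gene spans given above, because their RefSeq starts lie inside those spans. They are from RefSeq (GRCh38.p14), read on the strand of the gene and limited to bases outside annotated exons. Capitals mark CCAAT, the box bound by NF-Y, or GGGCGG, the GC box bound by SP1, on either strand, so that ATTGG and CCGCCC are the same motifs read from the other strand. The SCD stretch is chr10:100346983-100347123 (plus strand), the FADS1 stretch chr11:61817198-61817253 (minus strand), the FADS2 stretch chr11:61816149-61816202 (plus strand) and the ELOVL6 stretch chr4:110198677-110198841 (minus strand).
SCD: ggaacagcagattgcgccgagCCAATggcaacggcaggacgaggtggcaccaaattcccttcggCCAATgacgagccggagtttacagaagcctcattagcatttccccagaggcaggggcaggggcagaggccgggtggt
FADS1: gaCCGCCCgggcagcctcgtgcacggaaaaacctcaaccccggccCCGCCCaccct
FADS2: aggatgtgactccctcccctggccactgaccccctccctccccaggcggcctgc
ELOVL6: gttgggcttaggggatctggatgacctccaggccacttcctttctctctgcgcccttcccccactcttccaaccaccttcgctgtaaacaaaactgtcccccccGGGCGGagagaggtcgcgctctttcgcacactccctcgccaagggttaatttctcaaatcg
The SCD stretch holds 2 CCAAT boxes, which begin 229 and 186 bases before the start. The full 250 bases before the SCD start also hold 2 GC boxes, which lie outside the stretch shown. The FADS1 stretch holds 2 GC boxes, the ELOVL6 stretch 1 and the FADS2 stretch none of these letters.

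Over the full 250 bases before each start, 9 of the 10 genes had an entry, with 14 windows in all. CCAAT was in a window of 6 of these 9 genes (ACACA, ACLY, ACSL3, ACSS2, ELOVL5 and SCD), against 37.0% of all 27305 genes in the RefSeq table. GGGCGG was in a window of 8 of the 9, all but ELOVL5, against 46.2% of all genes. The E-box CACGTG was in that of ELOVL5 alone, against 7.73% of all genes. TCACNCCAC, a common form of the sterol regulatory element, was in 0 of the 9, against 1.09% of all genes. Each motif was searched on both strands. FADS1, FADS2 and ELOVL6 held no CCAAT in these windows. Whether any of these motifs goes with the size of the changes was not tested. A match is a description of the letters and says nothing on whether a factor binds there.

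ACSL3 (ENSG00000123983, chromosome 2, 222860942 to 222942222, plus strand) encodes an acyl-CoA synthetase of the endoplasmic reticulum and of lipid droplets. It had 31.2, 30.9 and 31.2 FPKM in shSLC1A5, against 39.9, 40.3 and 38.9 FPKM in shControl. The shSLC1A5 libraries were almost identical and all lower, with a log2 fold change of -0.37 ± 0.0218 (SE; edgeR adjusted p = 6.2e-07) and -0.30 after correction.

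The order of the 10 by level, which FPKM allows because they are per length, was the same in both groups. It ran SCD, ACLY, ELOVL5, ACSL3, FASN, FADS2, FADS1, ACACA, ELOVL6 and ACSS2, and in neither group did the FPKM of neighbours in this order overlap. Together the 10 summed to 289, 296 and 297 FPKM in shSLC1A5, against 463, 466 and 458 FPKM in shControl. SCD made up 22.5%, 22.4% and 22.8% of this sum in shSLC1A5, against 36.8%, 36.6% and 36.2% in shControl. The other 9 alone summed to 224, 229.6 and 229 FPKM in shSLC1A5, against 293, 296 and 292 FPKM in shControl, so their sum was lower as well.

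SCD had the largest fall of the 10 in both fits, at -1.36 and -1.34. The ratios of SCD to each of the other 9, lower in every shSLC1A5 library, restate this. They use uncorrected FPKM, and in the corrected fit FADS2 was at -1.05 and FASN at -0.72. SCD over FASN was 2.55 ± 0.0540 in shSLC1A5 and 4.98 ± 0.132 in shControl (SD, n = 3 each). SCD over ELOVL6, the elongase that supplies its stearate, was 7.40 ± 0.209 in shSLC1A5 and 17.6 ± 0.149 in shControl. Even against FADS2, the enzyme nearest to it in change, the ratio was 4.18 ± 0.0345 in shSLC1A5 and 5.86 ± 0.205 in shControl. In all, 12 ratios between enzymes were compared. The exact two-sided permutation test gave p = 0.1 for 11 of them, the smallest possible, and 0.109 after Benjamini-Hochberg adjustment over the 12. None could have passed with so few libraries, so this test decides nothing about the ratios.

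**Figure D3:**
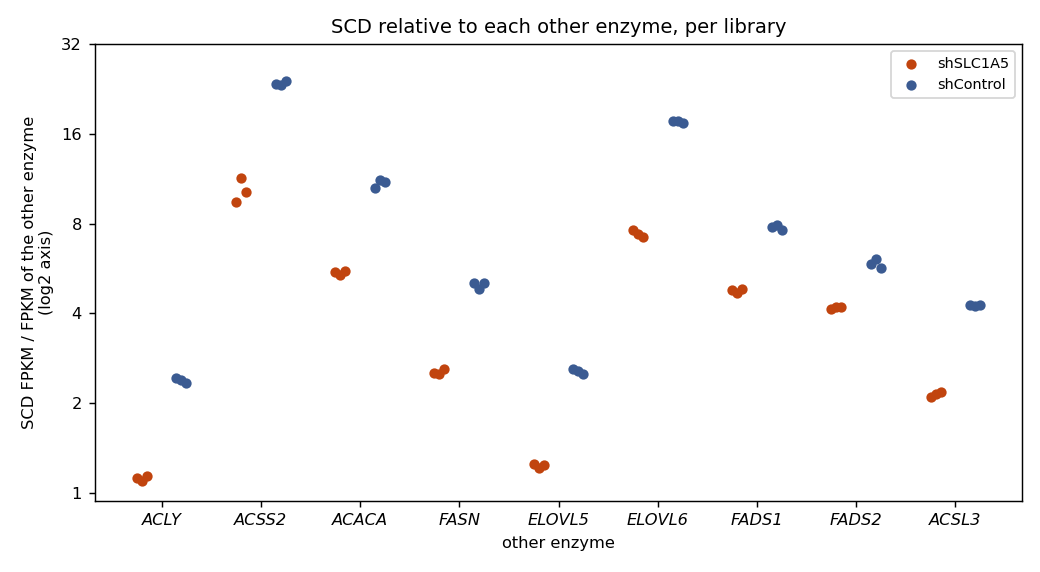
FPKM of SCD divided by the FPKM of each other enzyme in every library, on a log2 axis, with shSLC1A5 left of shControl in each pair. The shSLC1A5 points lie below the shControl points for all 9 denominators, for instance at 1.10 to 1.14 against 2.33 to 2.43 for ACLY.

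SCD5, the second human stearoyl-CoA desaturase, did not go the way of SCD. It had 1.61, 1.51 and 1.84 FPKM in shSLC1A5, against 1.12, 1.01 and 1.25 FPKM in shControl. SCD5 rose, with no overlap and a log2 fold change of 0.54 ± 0.137 (SE; edgeR adjusted p = 0.010), from a level far under that of SCD. The ratio of SCD to SCD5 was 40.5 ± 3.59 in shSLC1A5 and 151 ± 18.2 in shControl (SD, n = 3 each). SCD5 belongs to a list of 21 other genes of fatty acid synthesis and elongation, of which 12 were tested. Of these, 2 were called lower and 3 higher, with a median log2 fold change of 0.14. For comparison with this list and those below, 19.0% of all tested genes were called lower and 20.2% higher. Counts near these shares do not set a list apart. ELOVL1, an elongase of very long saturated chains, fell by 0.21 on the log2 scale (edgeR adjusted p = 5.3e-05). MECR, a reductase of the separate mitochondrial pathway, rose by 0.29 (edgeR adjusted p = 0.017, and 0.085 without shSLC1A5 replicate 1 or 0.057 without shControl replicate 2). FADS3, the neighbour of FADS1 and FADS2, was at -0.07 and did not pass. ACACB, the mitochondrial form of acetyl-CoA carboxylase, was among the 9 genes below the expression minimum. The other acyl-CoA synthetases went both ways, with 1 of 6 tested lower and 2 higher, and a median of 0.06. ACSL5 fell by 0.23 (edgeR adjusted p = 0.0020), while ACSF2 rose by 0.35 (edgeR adjusted p = 0.0019). ACSF3 rose by 0.22 (edgeR adjusted p = 0.022) and did not pass in the corrected fit (edgeR adjusted p = 0.14). It also missed the threshold without shSLC1A5 replicate 2 or 3 or shControl replicate 2 (edgeR adjusted p = 0.070 to 0.079). ACSL1 and ACSL4, at 0.11 and 0.01, did not pass.

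Genes that supply citrate and NADPH to the pathway went both ways, with 3 of 9 tested lower and 4 higher, and a median of 0.03. IDH1, the cytosolic NADP-dependent isocitrate dehydrogenase, fell by 0.56 (edgeR adjusted p = 2.2e-06), to 24.2, 22.5 and 21.9 FPKM in shSLC1A5, against 33.9, 32.4 and 33.9 FPKM in shControl. SLC25A10, SLC25A11 and PGLS rose by 0.49, 0.29 and 0.24 (edgeR adjusted p = 0.00021, 0.00016 and 0.0060). The corrected fit called 4 lower and 1 higher in this list, the higher one being SLC25A11. SLC25A1, the mitochondrial citrate carrier that feeds ACLY, was at 0.03 and did not pass in the uncorrected fit, and was at -0.28 and called lower in the corrected fit.

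Among the regulators, SREBF2 and INSIG1 fell. SREBF2 encodes the SREBP that mainly drives cholesterol synthesis, SREBF1 the one that mainly drives fatty acid synthesis, SCAP escorts both to the Golgi for cleavage, and INSIG1, itself an SREBP target, retains SCAP in the endoplasmic reticulum. INSIG1 had 8.72, 8.48 and 8.30 FPKM in shSLC1A5, against 39.7, 41.2 and 39.6 FPKM in shControl. It was far lower in every shSLC1A5 library, with a log2 fold change of -2.25 ± 0.0368 (SE; edgeR adjusted p = 2.3e-11). SREBF2 had 11.1, 11.6 and 11.5 FPKM in shSLC1A5, against 16.8, 17.1 and 17.0 FPKM in shControl, without overlap and with a log2 fold change of -0.58 ± 0.0287 (SE; edgeR adjusted p = 1.4e-07). SREBF1 had 7.60, 7.82 and 7.63 FPKM in shSLC1A5, against 6.94, 7.87 and 7.16 FPKM in shControl. Its groups overlapped and it did not pass, at 0.06 (edgeR adjusted p = 0.38), but the corrected fit put it at -0.22 (edgeR adjusted p = 0.0038), so no direction can be given for SREBF1. SCAP rose by 0.38 (edgeR adjusted p = 9.2e-05), and by 0.12 in the corrected fit, where it did not pass (edgeR adjusted p = 0.078). INSIG2 and the SREBP proteases MBTPS1 and MBTPS2, at 0.09, 0.02 and -0.03, did not pass. Of the 17 regulators tested, 2 were lower and 5 higher, with a median of 0.04, and the corrected fit called 4 lower and 1 higher.

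**Figure D4:**
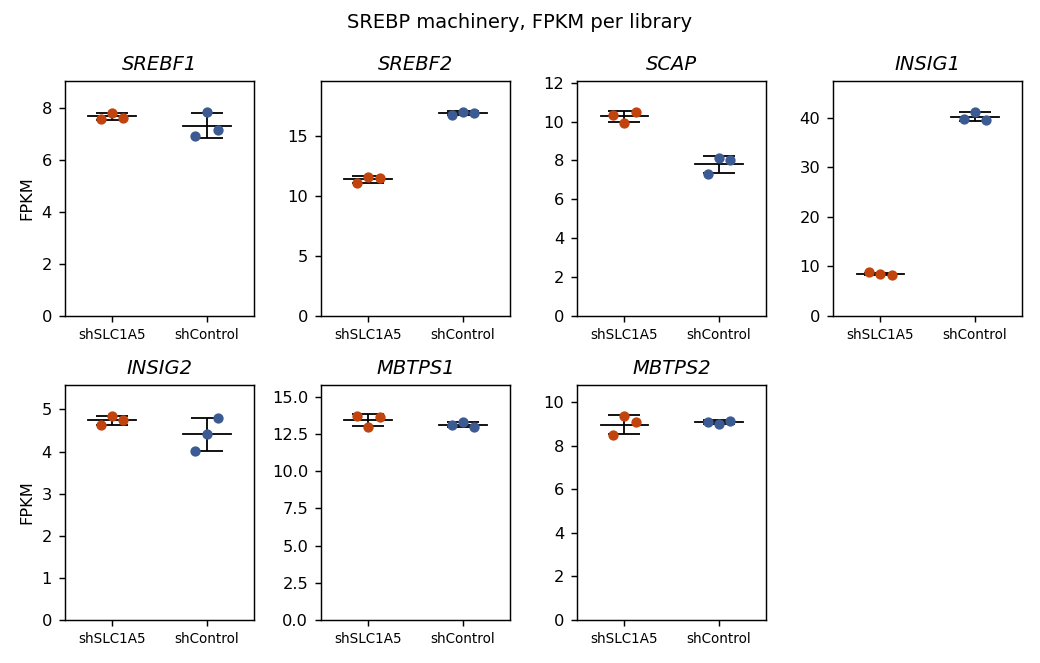
FPKM of the SREBP genes and their partners in each library (points), with group mean and SD (lines), shSLC1A5 left of shControl, each panel from 0 on its own scale. INSIG1 and SREBF2 are lower in all 3 shSLC1A5 libraries, with INSIG1 at 8.30 to 8.72 against 39.6 to 41.2 FPKM, while the groups overlap for SREBF1, INSIG2, MBTPS1 and MBTPS2.

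The cholesterol pathway, which shares its regulators with the fatty acid enzymes, was lower along nearly its whole length. Of 19 tested genes 18 were called lower and 0 higher, in both fits, with a median log2 fold change of -0.93, and PMVK, at 0.19, did not pass. HMGCS1, which makes the HMG-CoA for the pathway, had 5.45, 5.78 and 5.80 FPKM in shSLC1A5, against 17.9, 19.2 and 18.7 FPKM in shControl, a log2 fold change of -1.73 (edgeR adjusted p = 4.4e-10). MSMO1 and DHCR7, of the later sterol steps, fell by 1.71 and 1.21. SCD, at -1.36, lay within the range of these genes, as did FADS2 and FADS1, whereas in the uncorrected fit the 5 enzymes that fell by 0.27 to 0.40 did not reach the smallest called change of the cholesterol list, LSS at -0.42. In the corrected fit FASN, at -0.72, lay beyond LSS, at -0.59. In the uptake list, 3 of 7 tested genes were lower and 2 higher, with a median of -0.01 and a range of -1.14 to 0.56. DBI, an acyl-CoA-binding protein, had 31.2, 30.7 and 33.1 FPKM in shSLC1A5, against 43.5, 39.0 and 43.7 FPKM in shControl, and fell by 0.42 on the log2 scale (edgeR adjusted p = 7.2e-05).

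In the uncorrected fit, genes of fatty acid oxidation and storage had more higher than lower calls. Of 21 tested genes of fatty acid oxidation, 10 were higher and 3 lower, with a median of 0.11, and the corrected fit called 10 higher and 0 lower. Over all tested genes 20.2% were called higher and 19.0% lower. The corrected fit called 3071 of the 11841 tested genes, of which 1752 were lower. CPT1A, which commits acyl chains to mitochondrial oxidation, had 21.1, 21.1 and 21.2 FPKM in shSLC1A5, against 14.3, 14.2 and 14.2 FPKM in shControl. It rose without overlap by 0.56 ± 0.0262 (SE; edgeR adjusted p = 1.1e-07), and the carnitine carrier SLC25A20 rose by 0.50. Glycerolipid and droplet genes had 8 higher and 3 lower of 15 tested, with a median of 0.13, but 3 higher and 5 lower with a median of 0.01 in the corrected fit. PLIN2, the coat protein of lipid droplets, had 22.8, 22.5 and 23.0 FPKM in shSLC1A5, against 9.24, 9.38 and 10.4 FPKM in shControl, and rose by 1.22 ± 0.0443 (SE; edgeR adjusted p = 1.3e-08). LPIN1, a phosphatidate phosphatase, fell by 0.60 (edgeR adjusted p = 2.2e-06).

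**Figure D5:**
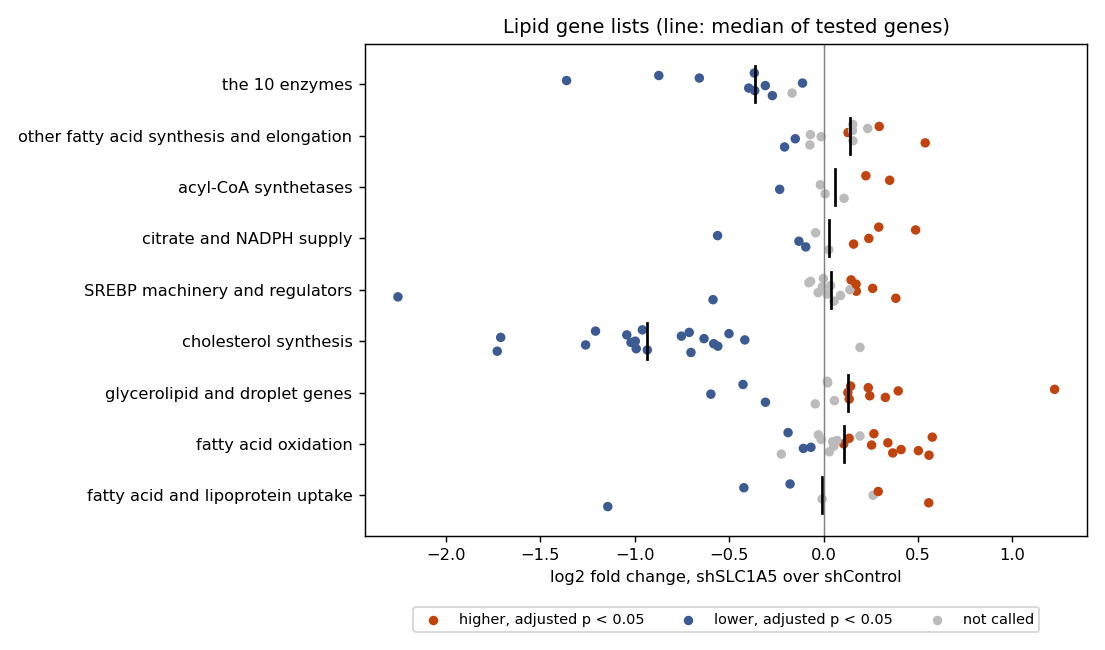
Log2 fold change, shSLC1A5 over shControl, of every tested gene in 9 lists, coloured by the edgeR call, with the median of each list as a black line. The median of the 10 enzymes is -0.37 and that of cholesterol synthesis -0.93, while the medians of the other 7 lists lie between -0.01 and 0.14.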

How the data were processed

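Per the labels' protocols, TRIzol was used for total RNA and oligo(dT) beads for poly(A) RNA, and both ends of the fragments were read on an Illumina NovaSeq. The submitters' processing notes name HISAT2, StringTie and fastp, without versions. The build, annotation, strand setting and treatment of multiply matching reads were not given in the sources used here. The authors deposited 1 table with counts per gene for 6 libraries per the file headers, taken here as raw counts, and FPKM per the file headers. Columns were matched to samples by group name and number, and 0 columns were left unmapped. Of 35750 gene IDs, 34674 were found in GENCODE 29, 99.77% of them overlapping that gene at its place on GRCh38.

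From the counts, edgeR 4.0.16 in R 4.3.3 fitted a model with group alone, with TMM scaling and quasi-likelihood F tests, adjusted by Benjamini-Hochberg over the 11841 genes whose mean FPKM reached 1, at an adjusted p under 0.05. The SE is the log2 fold change divided by the square root of F. The biological coefficient of variation was 0.0982. Total counts ran from 59327548 to 70802167 per library, and enzyme counts from 2322 to 63948. Within groups, pairs of libraries differed by 9.82 to 16.7 times counting noise (chi-square per gene), so no library was counted under 2 names. The correction used loess with a span of 0.3 on the length and GC content of each longest transcript in GENCODE 29, known for 99.7% of tested genes, as edgeR offsets. DESeq2 1.42.0, limma 3.58.1 on counts (voom), on log2(FPKM + 1) and on log2(FPKM + 0.1), other scalings and filters, leaving out each library and a replicate block were the alternatives, 18 settings in all. The edgeR step was tested on simulated counts. The members and gene lists were chosen with earlier results of these data known. Besides the 10 enzymes, the genes named are SLC1A5, 7 genes of the SREBP machinery and genes from the lists. By rule, up to 4 called genes per list with groups that do not overlap were picked, by size of change. Not all of those picked are named, so the counts and medians, rather than the genes named, describe each list. GFAP, SOX2, NES, CHI3L1, OLIG2, VIM, CD44, FN1, TIMP1, LGALS1, CD74, MPO, IGHM, FADS3, ACACB, ACSL1, ACSL4, SLC25A1, PMVK and LSS were named after their values were seen. One further gene of the uptake list is not reported here.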

Additional observations from a re-analysis of the deposited data

How the results depend on the processing

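Across 18 other settings, 8 of the 10 enzymes, all but ACSS2 and ELOVL6, kept their direction and their call. SCD ranged from -1.37 to -1.31, FADS2 from -1.05 to -0.82, FADS1 from -0.67 to -0.61 and FASN from -0.72 to -0.36. ACSS2 passed in 5 settings and ELOVL6 in 5. The count of enzymes called lower was 8 to 10, and 8 to 9 when a library was left out. Over all genes, 4641 passed in the fit reported and 3863 to 4081 when a library was left out, but 3071 with the GC content and length correction and 2928 with that correction and the replicate block. The median of the enzymes, -0.37, was -0.33 with the correction and -0.33 with the correction and the block. It was -0.33 with quantile normalization and -0.33 and -0.35 with limma on log2(FPKM + 1) and log2(FPKM + 0.1). It was -0.35 with a mean FPKM of at least 5, and from -0.39 to -0.34 when a library was left out. Replicate numbers did not pair the samples (correlations of -0.15, 0.04 and -0.03 between same-numbered libraries, and no shSLC1A5 library correlated best with the shControl library of its number). The replicate block gave 4470 genes and 8 enzymes. Signs that reversed were those of SREBF1, at -0.22 with the correction and -0.22 with the correction and block; MBTPS1, at -0.000883 to 0.0489 when a library was left out; and MBTPS2, at 0.0537 with the correction, 0.0530 with the correction and block, and -0.0572 to 0.00617 when a library was left out. Both changed sign without shSLC1A5 replicate 1, and neither passed the test. The cause of these shifts was not tested. Of 820 values over 46 genes, 755 kept direction and call, 54 lost and 5 gained the call, and 6 reversed. The precision is limited by 3 libraries per group and by the counts of each enzyme.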
